A study of Mus musculus with 8 samples.

Results

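Dppa3, the gene that encodes PGC7 (also known as Stella), and 9 genes of the mouse DNA methylation system were followed across 8 Affymetrix expression arrays of a fibroblast line and a melanoma line. The 10 genes are Dppa3, Dnmt1, Dnmt3a, Dnmt3b, Uhrf1, Uhrf2, Tet1, Tet2, Tet3 and Hells. Every probe set annotated to 1 of these symbols alone, current or older, was taken, which gave 25 of the 45101 probe sets on the array and 10 of the 18194 genes with a symbol of their own. A filter on low signals, described with the first test, was passed by 23 of the 25 probe sets and by 9 of the 10 genes. Probe sets were taken by symbol and not by signal, but the members were chosen with earlier results of these data known.

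Cytosine methylation at CpG sites is copied at each round of DNA replication. UHRF1 binds hemimethylated DNA behind the replication fork and brings in DNMT1, the maintenance methyltransferase, which methylates the new strand, and HELLS (LSH) is a chromatin remodeller that opens nucleosomal DNA for methylation. DNMT3A and DNMT3B set new methylation, and the TET dioxygenases oxidise methylcytosine, which leads to its removal. PGC7 is abundant in oocytes and primordial germ cells. In the zygote it protects the maternal genome from TET3-dependent oxidation, and in oocytes and in overexpressing cells it binds UHRF1 and displaces it from chromatin.

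The groups were B16F10 labelled PGC7 (n = 3: clones 1, 2 and 3), B16F10 control (n = 1), NIH3T3 labelled PGC7 (n = 3: clones 1 and 2 and an uncloned culture, a mixture of PGC7-expressing clones) and NIH3T3 control (n = 1). B16F10 is a melanoma line from C57BL/6 mice and NIH3T3 an immortalised embryonic fibroblast line, both grown in serum. Overexpression was by overnight infection with virus in polybrene, and the labels do not state whether the controls had received a virus without PGC7. Groups were taken from the sample titles, because the genotype entries of all 6 overexpressing samples named PGC8 and called each one pre-cloned. Each control is 1 array, so its own spread was not measured, and a cloned culture stands for 1 picked clone. No array batch is stated, so whether arrays of the lines, or a control and its PGC7 arrays, were hybridized together is unknown. The line labels went with their defining markers: 7 of 7 melanocyte genes were higher in all B16F10 arrays (summed signal 104710 to 135098, against 624 to 768 in NIH3T3) and 7 of 8 fibroblast genes were higher in all NIH3T3 arrays (summed signal 554 to 855 in B16F10, against 79254 to 118044 in NIH3T3). Correlations of log2 signals were 0.679 to 0.698 between arrays of different lines, 0.970 to 0.987 within B16F10 and 0.912 to 0.978 within NIH3T3. Signals are given in arbitrary units after each array was scaled to the same trimmed mean of 500, and they compare arrays for 1 probe set, not 1 gene with another. Precision is limited by how few arrays there are.

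Dppa3 was read by 1 probe set, 1424295_at, and the locus lies at chr6:122626424-122630271 (GRCm38.p6). Its signal was 70.0, 117 and 71.0 in B16F10 clones 1, 2 and 3, against 23.5 in the B16F10 control. All 3 clones were above their control. In NIH3T3 it was 29.7 and 55.4 in clones 1 and 2 and 101 in the uncloned culture, against 69.8 in the NIH3T3 control. Those arrays lay on both sides of their control. The log2 change, PGC7 minus control, was 1.51 ± 0.58 (SE; 95% interval 0.18 to 2.85; adjusted p = 0.27) in B16F10 and -0.28 ± 0.58 (interval -1.62 to 1.05; adjusted p = 0.802) in NIH3T3. These changes are on the scale log2(signal + 9), which understates changes of dim probe sets, and each adjusted p comes from limma with Benjamini-Hochberg adjustment over 25236 probe sets. The probe set did not pass the threshold of 0.05 in either line, although PGC7 was the gene put into the cells. The position of its probes on the virus-borne copy is not stated, so it does not check the labels, and the arrays are called by their labels throughout. In bulk RNA, fewer cells with a transcript and less of it per cell cannot be told apart.

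The native Dppa3 locus sits among genes used in pluripotent cells. Of 7 neighbours, 4 were tested (Apobec1, Slc2a3, Foxj2 and Necap1), and none was called in either line. The largest changes were those of Apobec1 (log2 1.48 ± 0.56 in B16F10 and -1.38 ± 0.56 in NIH3T3, limma, adjusted p = 0.26 and 0.145). Nanog, at 1.17 to 22.1 over the arrays, was under the filter signal. The 4 therefore do not speak for the neighbours used in pluripotent cells. Over all genes 1.18% were called higher and 0.386% lower in B16F10, and 7.87% and 7.35% in NIH3T3. Nanog, Pou5f1, Zfp42, Sox2, Ddx4 and Dazl, markers of pluripotent and germ cells, had a summed signal of 39.2 to 47.9 in B16F10 arrays and 24.1 to 74.8 in NIH3T3 arrays, and none of the 6 differed between all arrays of the lines. Dppa2, the only tested gene of its family, had 889.8 and 489 in NIH3T3 clones 1 and 2 and 16.6 in the uncloned culture, against 33.9 in the NIH3T3 control, high in the clones and low in the other arrays of the line (adjusted p of the 3 arrays against the control = 0.382). In B16F10 it had 8.72, 15.3 and 0.797 in clones 1, 2 and 3, against 4.49 in the control. Every array but NIH3T3 clones 1 and 2 was under the filter signal of 49.3, so Dppa2 was tested only through those clones.

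In B16F10, no member was called between the clones and the control. Across all tested probe sets 1.19% were called, and 0 of 23 member probe sets were (3 had an unadjusted p under 0.05: Dppa3, Uhrf1 1415810_at and Hells 1417541_at). The control lay above all 3 clones for 9 member probe sets (Dnmt1, Dnmt3b, Uhrf1 and Hells), where 32.2% of all probe sets did so, and below all 3 for 8 (Dppa3, Dnmt3a, Uhrf2, Tet1 and Tet2), where 37.0% did so. In NIH3T3, 1 of 23 was called, Hells 1417541_at, which was lower, where 12.8% of all probe sets were called and 6.32% called lower (5 members had an unadjusted p under 0.05). The control lay above all 3 PGC7 arrays for 14 member probe sets, against 38.3% of all, and below them for 2, both of Uhrf2, against 28.9% of all. Of these 2, Uhrf2 1447217_at passed the filter only through NIH3T3, where its PGC7 arrays were high. The median log2 change over the 23 was -0.08 in B16F10 (0.02 over all tested probe sets) and -0.35 in NIH3T3 (-0.07 over all). The poly-A spike probe sets read bacterial transcripts mixed into the sample RNA. Scaling on them moved the median of all probe sets to -0.78 in B16F10 and 0.26 in NIH3T3. Changes are therefore given relative to the average probe set. The spikes' median log2 offset from the mean of the 8 arrays was -0.77 in the B16F10 control and 0.06, -0.07 and 0.23 in its clones. It was 0.37 in the NIH3T3 control and 0.08, -0.14 and 0.13 in clones 1 and 2 and the uncloned culture. The B16F10 shift under this scaling thus rests mostly on 1 control array. With the spike scaling, 12 member probe sets were called lower in B16F10, where 10594 of all were called lower and 197 higher. In NIH3T3, 0 were called, where 2494 of all were called higher and 622 lower.

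**Figure D1:**
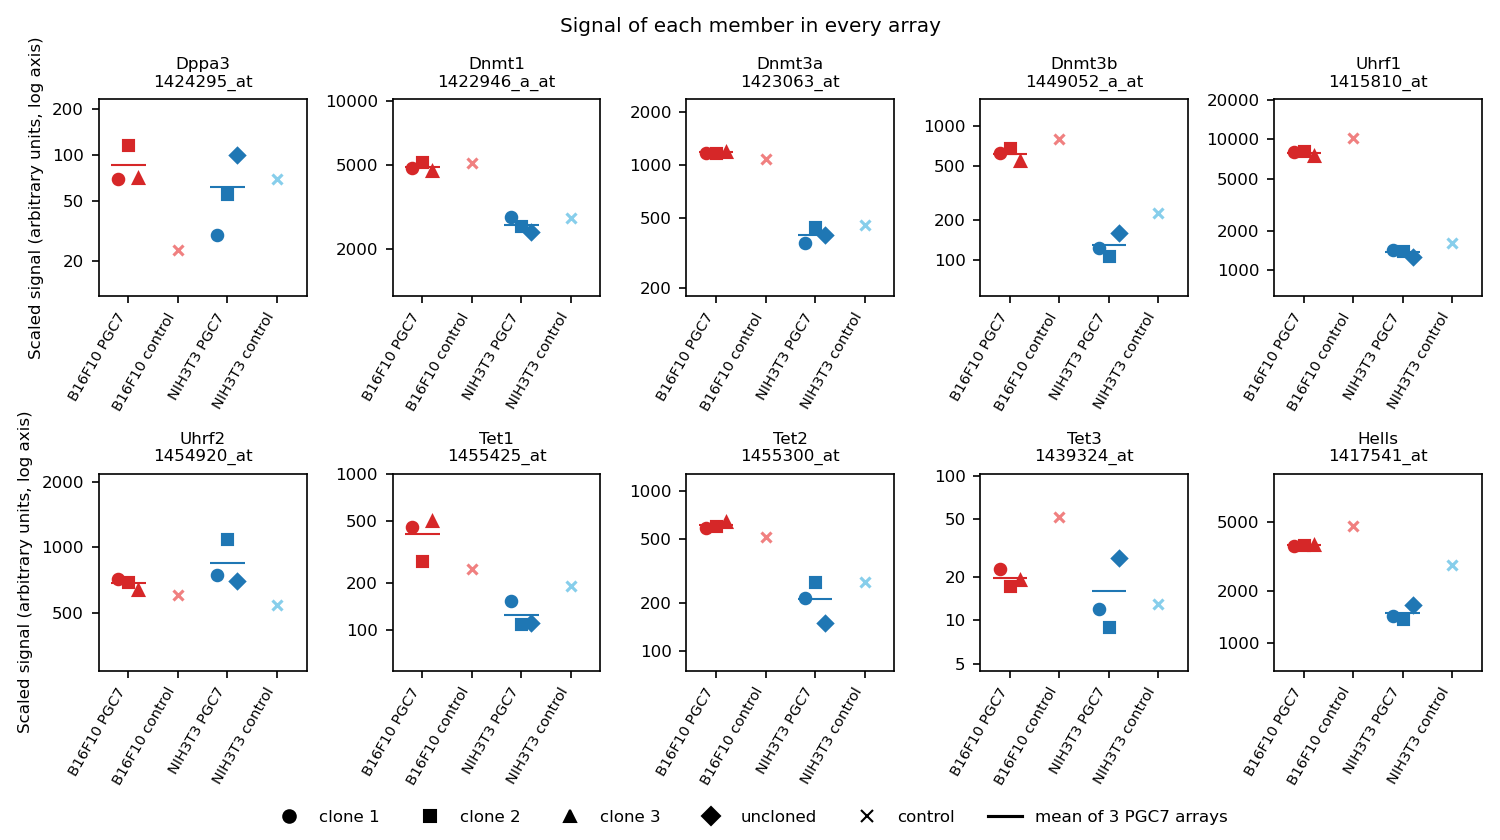
Scaled signal (arbitrary units, log axis) of the brightest probe set of each of the 10 genes on every array; marker shapes name the clone, culture or control and horizontal lines are means of 3 PGC7 arrays. Hells 1417541_at is the member called in NIH3T3, where 1387 to 1661 in the PGC7 arrays lie below 2815 in the control, and Uhrf1 1415810_at reads 7392 to 10200.5 in B16F10 arrays against 1265 to 1623 in NIH3T3 arrays.

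**Figure D2:**
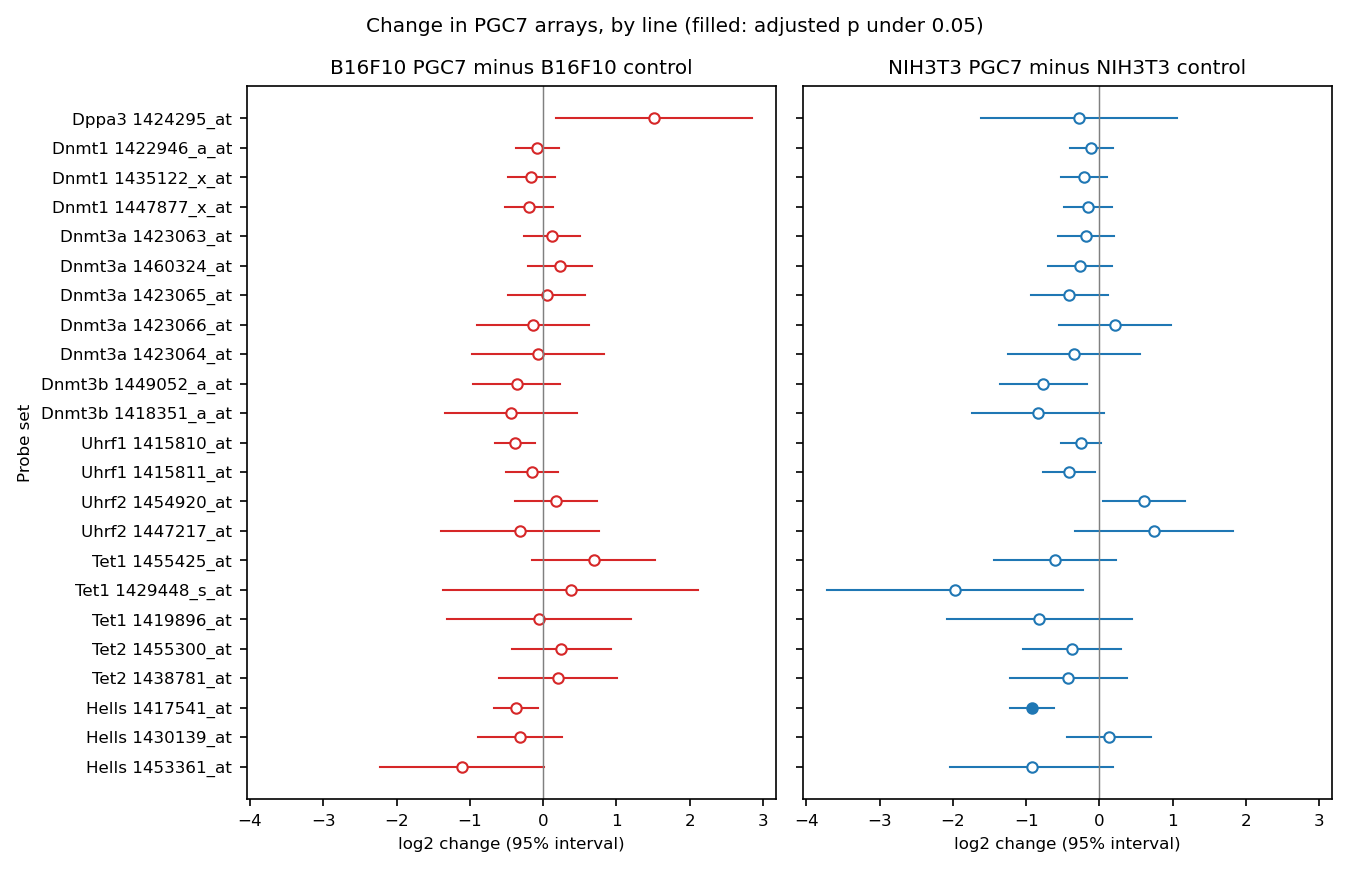
Log2 change, PGC7 minus control, of the 23 tested member probe sets with its 95% interval, B16F10 on the left and NIH3T3 on the right; filled points passed an adjusted p of 0.05. The one filled point is Hells 1417541_at in NIH3T3, at -0.92.

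Of the maintenance genes, Hells was the one called. On probe set 1417541_at, its brightest, the signal was 1431 and 1387 in NIH3T3 clones 1 and 2 and 1661 in the uncloned culture, against 2815 in the NIH3T3 control. All 3 arrays lay below the control, and the PGC7 arrays averaged 1493 ± 147 (SD, n = 3). Hells was 1.89-fold lower there (log2 -0.92 ± 0.13, SE; adjusted p = 0.00346). In B16F10 the same probe set had 3649, 3717 and 3702 in clones 1, 2 and 3, against 4785 in the control. All 3 clones were again below, with a narrow spread (mean 3689 ± 35.6, SD, n = 3), and the log2 change of -0.37 ± 0.13 did not pass (adjusted p = 0.225). That change passed when the B16F10 arrays were fitted alone (adjusted p = 0.0341), a fit that also raised the calls over all probe sets. Over 15 alternatives it passed in 3, with limma's adjusted p up to 0.566. The NIH3T3 call held in 13 of 15. It did not hold when the NIH3T3 arrays were fitted alone (adjusted p = 0.0531) or with the spike scaling (log2 -0.57, adjusted p = 0.107).

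Hells has 2 more probe sets on the array. On 1453361_at, dimmer, the signal was 144, 138 and 61.6 in B16F10 clones 1, 2 and 3, against 242 in the control, and 69.7, 43.6 and 53.7 in NIH3T3 clones 1 and 2 and the uncloned culture, against 112 in the control. It lay below the control in all 6 PGC7 arrays (log2 -1.11 ± 0.49 in B16F10 and -0.93 ± 0.49 in NIH3T3, adjusted p = 0.336 and 0.255). On 1430139_at, NIH3T3 clones 1 and 2 had 627 and 543 and the uncloned culture 393, against 465 in the control, so the NIH3T3 arrays were not on one side (log2 0.14 ± 0.25, adjusted p = 0.771). The 3 probe sets of this gene thus do not give the same change in NIH3T3.

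Uhrf1 encodes the hemimethylated DNA reader that PGC7 binds. On 1415810_at its signal was 7961, 8167 and 7392 in B16F10 clones 1, 2 and 3, against 10200.5 in the control. In NIH3T3 it was 1423, 1398 and 1265 in clones 1 and 2 and the uncloned culture, against 1623 in the control. All 6 PGC7 arrays were below the control of their line. The log2 change was -0.38 ± 0.12 in B16F10 (adjusted p = 0.182; 0.0457 in the B16F10 arrays fitted alone) and -0.25 ± 0.12 in NIH3T3 (adjusted p = 0.208). The B16F10 change passed in 3 of 15 alternatives, with limma's adjusted p up to 0.429. On the second probe set, 1415811_at, 1313, 1324 and 1293 in B16F10 clones 1, 2 and 3 stood against 1456 in the control, and 857, 793 and 692 in NIH3T3 clones 1 and 2 and the uncloned culture against 1035 in the control. The order was the same (log2 -0.15 ± 0.16 and -0.41 ± 0.16, adjusted p = 0.712 and 0.123).

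Dnmt1, the maintenance methyltransferase, was not called. Its 3 probe sets had log2 changes of -0.08 to -0.20 in B16F10 and -0.11 to -0.21 in NIH3T3, none called. On the brightest, 1422946_a_at, the signal was 4813, 5143 and 4672 in B16F10 clones 1, 2 and 3, against 5136 in the control, and 2843, 2558 and 2392 in NIH3T3 clones 1 and 2 and the uncloned culture, against 2803 in the control. In each line 1 clone was above the control and the others below it. The 95% intervals were -0.37 to 0.22 in B16F10 and -0.41 to 0.18 in NIH3T3. Uhrf2, a paralogue of Uhrf1 that does not take over its maintenance role, had 748 and 1094 in NIH3T3 clones 1 and 2 and 699.8 in the uncloned culture, against 540.2 in the control, on 1454920_at. All 3 were above the control (log2 0.61 ± 0.25, adjusted p = 0.142; 0.0384 without the uncloned culture). This change passed in only 1 of 15 alternatives, with limma's adjusted p up to 0.313. Without the uncloned culture more of all probe sets were called as well. In B16F10 it had 713, 693 and 638 in clones 1, 2 and 3, against 600.4 in the control (log2 0.18 ± 0.25, adjusted p = 0.796). On the dim 1447217_at it had 33.6, 23.7 and 50.4 in the B16F10 clones against 45.2 in the control, on both sides of it (log2 -0.32 ± 0.47, adjusted p = 0.814), and 68.3, 58.9 and 94.1 in NIH3T3 clones 1 and 2 and the uncloned culture against 39.5 in the control (0.75 ± 0.47, adjusted p = 0.342). That probe set passed the filter only through NIH3T3, where the PGC7 arrays were above the filter signal of 49.3 and the control below it. Its rise there is therefore not independent of the filter.

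The promoters of Dnmt1, Uhrf1 and Hells are shown because these were the members whose promoter window held a match to the letters that E2F factors bind, the regulators of genes used in S phase. The windows run from 250 bases before to 50 after the RefSeq transcription start (GRCm38.p6), written 5′ to 3′ on the gene's strand, with E2F matches in capitals (TTTCCCGC, TTTCGCGC, TTTGCCGC or TTTGGCGC, on either strand). The motifs were chosen after the members' values were seen.
Dnmt1, chr9:20952574-20952873, minus strand: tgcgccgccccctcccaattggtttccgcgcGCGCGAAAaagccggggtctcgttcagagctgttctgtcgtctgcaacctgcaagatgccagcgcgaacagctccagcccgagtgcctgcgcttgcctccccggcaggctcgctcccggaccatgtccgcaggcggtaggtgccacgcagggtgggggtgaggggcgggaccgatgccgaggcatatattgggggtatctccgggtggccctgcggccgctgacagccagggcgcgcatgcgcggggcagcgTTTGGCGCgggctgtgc
Uhrf1, chr17:56304063-56304362, plus strand: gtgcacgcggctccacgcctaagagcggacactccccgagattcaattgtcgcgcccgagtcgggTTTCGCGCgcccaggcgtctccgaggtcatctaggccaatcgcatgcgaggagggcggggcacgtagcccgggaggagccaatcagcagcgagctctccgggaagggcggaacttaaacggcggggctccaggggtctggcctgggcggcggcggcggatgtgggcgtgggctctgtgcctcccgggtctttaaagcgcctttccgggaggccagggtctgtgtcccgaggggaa
Hells, chr19:38930740-38931039, plus strand: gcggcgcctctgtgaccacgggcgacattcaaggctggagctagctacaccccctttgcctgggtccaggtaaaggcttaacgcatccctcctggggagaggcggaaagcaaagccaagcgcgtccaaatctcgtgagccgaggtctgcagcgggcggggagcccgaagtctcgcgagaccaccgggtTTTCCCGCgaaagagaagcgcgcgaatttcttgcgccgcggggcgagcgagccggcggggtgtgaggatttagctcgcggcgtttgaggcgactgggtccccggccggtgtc
The match lies 185 bases before the start in Uhrf1 and 62 bases before it in Hells. In Dnmt1 one lies 219 bases before the start, on the opposite strand, and another at base 34 after it. Windows were listed for 9 of the 10 genes, and 3 of the 9 held such a match, where 2.61% of 27025 genes did. The CCAAT box (CCAAT) was found in 3 of the 9 genes and 41.1% of all genes, the E box (CACGTG) in 1 of 9 and 8.09%, and the GC box (GGGCGG) in 9 of 9 and 38.2%, each on both strands. The 3 printed windows hold 33, 33 and 34 CpG sites, in the order shown, where the median window holds 7. Other listed starts of these genes held no such match and fewer CpG sites: 2 further windows of Dnmt1 had 2 and 12, and 1 further window of Uhrf1 had 12. A match to such letters is a description of the sequence and not a binding site.

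Neither de novo methyltransferase was called in either line. Dnmt3b had 625, 685 and 551 in B16F10 clones 1, 2 and 3, against 796 in the control, and 123 and 108 in NIH3T3 clones 1 and 2 and 159 in the uncloned culture, against 225 in the control, on 1449052_a_at. All 6 PGC7 arrays were below their control. The log2 change was -0.36 ± 0.26 in B16F10 (adjusted p = 0.573) and -0.76 ± 0.26 in NIH3T3 (adjusted p = 0.0903; 0.0144 without the uncloned culture). The NIH3T3 change passed in only 1 of 15 alternatives, with limma's adjusted p up to 0.426. Leaving the uncloned culture out also raised the number of calls over all probe sets. The second probe set, 1418351_a_at, was below the control in all 6 as well (log2 -0.44 ± 0.39 and -0.84 ± 0.39, adjusted p = 0.662 and 0.201). Dnmt3a had 1179.8, 1178 and 1189 in B16F10 clones 1, 2 and 3, against 1085 in the control, on 1423063_at, and 362, 443 and 403 in NIH3T3 clones 1 and 2 and the uncloned culture, against 457 in the control. The clones were above the control in B16F10 and the PGC7 arrays below it in NIH3T3, and neither change passed (log2 0.12 ± 0.17 and -0.18 ± 0.17). The other 4 Dnmt3a probe sets had changes of -0.14 to 0.23 in B16F10 and -0.41 to 0.21 in NIH3T3.

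The Tet genes, whose products oxidise methylcytosine, were not called in either line. Tet1 had 458, 278 and 505 in B16F10 clones 1, 2 and 3, against 245 in the control, on 1455425_at, and 154, 110.1 and 111 in NIH3T3 clones 1 and 2 and the uncloned culture, against 193 in the control. The B16F10 clones were all above and the NIH3T3 arrays all below (log2 0.69 ± 0.37 and -0.61 ± 0.37, adjusted p = 0.425 and 0.316). On 1429448_s_at the directions were the same, with 337, 273 and 370.4 in the B16F10 clones against 248 in the control, and 85.5, 9.68 and 65.9 in NIH3T3 clones 1 and 2 and the uncloned culture against 191 in the control (log2 0.38 ± 0.76 and -1.97 ± 0.76, adjusted p = 0.87 and 0.129). NIH3T3 clone 2 was far below the rest there. Without it the change was -1.25 (adjusted p = 0.0455). Of 15 alternatives this was the only 1 in which the change passed, with limma's adjusted p up to 0.299. The third tested probe set, 1419896_at, had 52.7, 81.6 and 60.5 in the B16F10 clones against 66.9 in the control, and 101, 32.2 and 46.6 in NIH3T3 clones 1 and 2 and the uncloned culture against 102 in the control. It was on both sides of the control in B16F10 (log2 -0.06 ± 0.55, adjusted p = 0.98) and below it in NIH3T3 (-0.82 ± 0.55, adjusted p = 0.375).

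Tet2 had 588, 608 and 643 in B16F10 clones 1, 2 and 3, against 514 in the control, and 213, 269 and 150.1 in NIH3T3 clones 1 and 2 and the uncloned culture, against 269 in the control, on 1455300_at. The B16F10 clones were above their control and NIH3T3 clone 2 was level with its own (log2 0.25 ± 0.29 and -0.37 ± 0.29, adjusted p = 0.756 and 0.454). On 1438781_at the B16F10 clones had 332, 303 and 291, against 266 in the control. NIH3T3 clones 1 and 2 and the uncloned culture had 248, 122 and 180, against 240 in the control. Clone 2 was the lowest there, so the Tet2 probe sets order the NIH3T3 arrays differently. Neither change passed (log2 0.20 ± 0.35 and -0.43 ± 0.35, adjusted p = 0.842 and 0.473). Tet3, the TET enzyme of the zygote, had 1 probe set, 1439324_at, which did not pass the filter: it read 22.5, 17.1 and 18.8 in the B16F10 clones against 51.5 in the control, and 11.9, 8.93 and 26.9 in NIH3T3 clones 1 and 2 and the uncloned culture against 12.8 in the control. The filter kept probe sets whose mean log2 signal in at least 1 line reached the median of all values, a signal of 49.3. Tet1 1419897_at was the other member left untested, with 6.36 to 24.4 in B16F10 clones against 2.50 in the control and 7.06 to 82.8 in NIH3T3 PGC7 arrays against 1.48 in the control.

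Over both lines together, 0 of 23 member probe sets were called for PGC7 minus control, where 0.155% of all were (limma; 4 members had an unadjusted p under 0.05). The control lay above all 3 PGC7 arrays in both lines for 8 member probe sets, 2 each of Dnmt1, Dnmt3b, Uhrf1 and Hells, where 13.4% of all did so. The smallest adjusted p was that of Hells 1417541_at (log2 -0.64 ± 0.14, adjusted p = 0.0986). The difference between the lines' changes, B16F10 minus NIH3T3, was called for 0 of 23, where 6.88% of all were called (limma; 2 members had an unadjusted p under 0.05). It was 0.54 ± 0.19 for Hells 1417541_at (adjusted p = 0.125; 0.0111 without the uncloned NIH3T3 culture, and turned to -0.64, adjusted p = 0.106, under the spike scaling) and 1.30 ± 0.52 for Tet1 1455425_at (adjusted p = 0.177). The Hells difference passed in only 1 of 14 alternatives. PGC7 arrays lay all above the control in B16F10 and all below it in NIH3T3 for 4 member probe sets, 2 each of Dnmt3a and Tet1, where 13.0% of all did so. Under the spike scaling the B16F10 changes of all 4 were below 0.

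Between the lines many more member probe sets were called than between PGC7 and control arrays, as was the case for all probe sets. All levels below are B16F10 minus NIH3T3 with 4 arrays a line, fitted with PGC7 as a term. Of 23 member probe sets, 17 were higher in B16F10 and 0 lower, where 29.9% of all probe sets were called higher, 41.4% lower and 71.4% either way. The 17 belong to 7 genes (Dnmt1, Dnmt3a, Dnmt3b, Uhrf1, Tet1, Tet2 and Hells). All 4 B16F10 arrays were above all 4 NIH3T3 arrays for 16 of the 23, where 26.4% of all probe sets were. The median log2 difference was 1.10 over the members and -0.22 over all probe sets. In bulk RNA such differences cannot tell more RNA per cell from more cells of a kind.

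**Figure D3:**
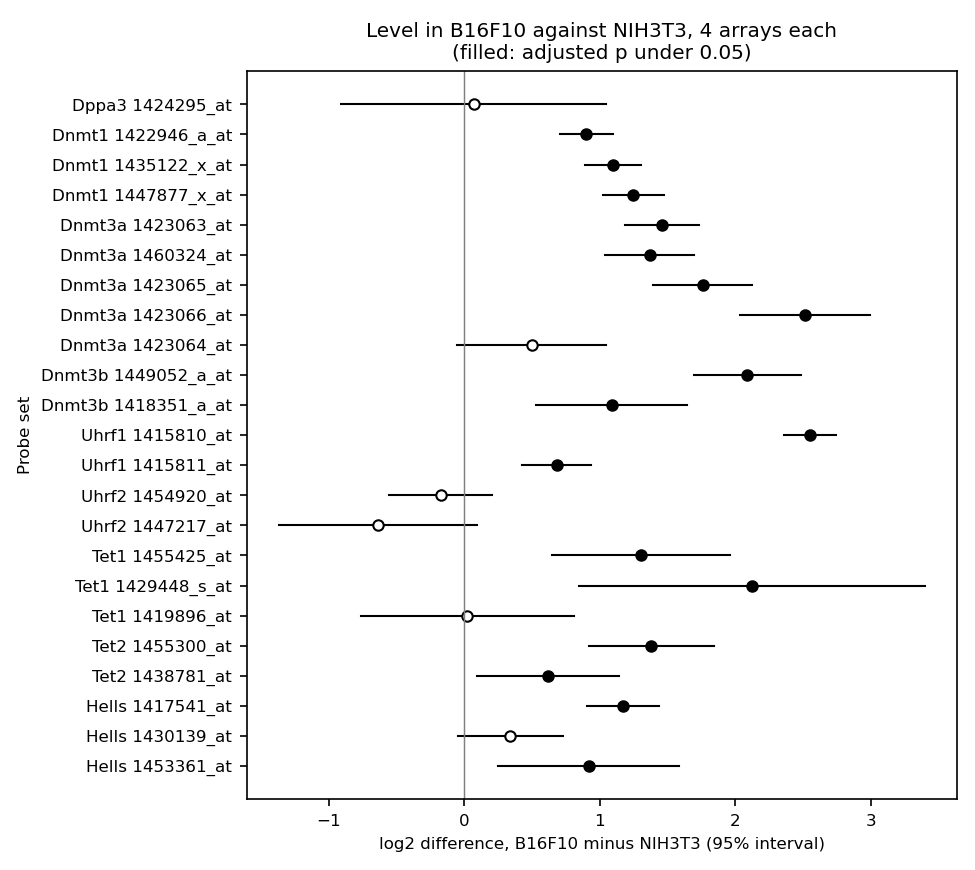
Log2 difference, B16F10 minus NIH3T3 over 4 arrays each, of the 23 tested member probe sets with 95% intervals; filled points passed an adjusted p of 0.05. The points of Dnmt1, Dnmt3b, Tet2 and Uhrf1 lie right of 0, those of Uhrf2 lie left of it unfilled, and the probe sets of Dnmt3a, Hells, Tet1 and Uhrf1 spread widely within a gene.

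Uhrf1 1415810_at stood at 7392 to 10200.5 in B16F10 arrays, against 1265 to 1623 in NIH3T3 arrays. The groups did not overlap, and the difference was 5.86-fold (log2 2.55 ± 0.08, adjusted p = 2.64e-08). Its other probe set, 1415811_at, was 1.60-fold higher (log2 0.68 ± 0.11, adjusted p = 0.000493), so the probe sets of Uhrf1 disagree on the size. Dnmt1 was 1.87-fold, 2.14-fold and 2.37-fold higher by 1422946_a_at, 1435122_x_at and 1447877_x_at (log2 0.90 ± 0.09, 1.10 ± 0.09 and 1.25 ± 0.10). Hells was higher by 1.17 ± 0.12 on 1417541_at and 0.92 ± 0.30 on 1453361_at and was not called on 1430139_at (0.34 ± 0.17, adjusted p = 0.104). The call of Hells 1453361_at did not hold when any of 3 single PGC7 arrays was left out (B16F10 clone 1 or 2 or NIH3T3 clone 2), with adjusted p up to 0.0652.

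The de novo enzymes were higher as well. Dnmt3b was 4.25-fold higher on 1449052_a_at (log2 2.09 ± 0.17, adjusted p = 6.09e-06) and 2.12-fold on 1418351_a_at (1.09 ± 0.25, adjusted p = 0.0033). Dnmt3a was called on 4 of 5 probe sets, with log2 differences of 1.37 to 2.51, and not on the dim 1423064_at (0.50 ± 0.24, adjusted p = 0.0947). Tet1 was higher by 1.30 ± 0.29 on 1455425_at and 2.12 ± 0.57 on 1429448_s_at and level on 1419896_at (0.02 ± 0.35). Tet2 was 2.60-fold higher on 1455300_at (log2 1.38 ± 0.20, adjusted p = 0.000247). On 1438781_at it was higher by 0.62 ± 0.23 (adjusted p = 0.0381), a call lost when either other NIH3T3 PGC7 array than clone 1 or any B16F10 clone was left out (adjusted p up to 0.105). Dppa3 (0.07 ± 0.43, interval -0.91 to 1.05) and Uhrf2 1454920_at (-0.18 ± 0.17, interval -0.55 to 0.20) were not called.

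The direction held under the spike scaling, which called 17 higher and 0 lower, and under quantile normalization, which called 19 higher and 0 lower. These scalings moved the median of all probe sets to 0.07 and 0.11, with 7383 and 9340 of all called higher and 7141 and 7892 called lower. The deposited values, in which the NIH3T3 arrays were scaled lower, moved it to 1.36 (18475 higher and 2847 lower), called 22 members higher and turned Uhrf2 1454920_at from below 0 to above it. Genes of DNA replication moved with the members: 20 of 28 tested S phase genes were higher in B16F10 and 2 lower (median log2 0.95, and 0.83 to 2.54 under the other scalings), where 4071 of 11643 genes were higher and 4325 lower (median -0.03). The 2 lower were E2f1 (-1.22 ± 0.20), which encodes an E2F factor, and Tyms (-0.76 ± 0.28). E2f1 thus ran against the members here, and its NIH3T3 change, PGC7 minus control, was 0.62 ± 0.28, not called. Mcm5 (2.06 ± 0.12), a subunit of the replicative helicase, and Pold1 (2.01 ± 0.15), the catalytic subunit of DNA polymerase delta, are examples of the higher genes. They were picked after their values were seen. The summed signal of Mki67 and Top2a, expressed in proliferating cells, was 16947 to 20011 in B16F10 arrays and 10025 to 12101 in NIH3T3 arrays. Their part in the members' difference was not tested.

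The S phase list was also looked at between PGC7 and control arrays. In B16F10, 0 of its 28 tested genes were called, where 137 of all 11643 genes were called higher and 45 lower. Of the 28, 23 had a change below 0, and the median was -0.11 (0.05 over all genes). In NIH3T3, 1 rose and 4 fell, with a median of -0.15 that turned to 0.19 under the spike scaling (-0.04 over all genes, of which 916 rose and 856 fell). Cdt1, which licenses replication origins, rose by 0.76 ± 0.18 (adjusted p = 0.0296). Pole (-0.61), Mcm7 (-0.54), Rrm1 (-0.43) and Prim1 (-0.41), a polymerase subunit, a helicase subunit, the large ribonucleotide reductase subunit and a primase subunit, fell (adjusted p = 0.0471, 0.0246, 0.0375 and 0.049), and none of these 4 was called under the spike scaling. Mki67 was below the control in all 6 PGC7 arrays, with 7810.2, 7829.8 and 8621 in B16F10 clones 1, 2 and 3 against 9115 in the control, and 3859.8, 2949.9 and 3051 in NIH3T3 clones 1 and 2 and the uncloned culture against 4849 in the control. The other proliferation marker, Top2a, was below the control in the B16F10 clones (9137, 9304 and 9485 against 10896) but on both sides of it in NIH3T3, with 8149, 7075 and 7937 in clones 1 and 2 and the uncloned culture against 7252 in the control. The part of these genes in the changes of Uhrf1, Dnmt3b and Hells was not tested.

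**Figure D4:**
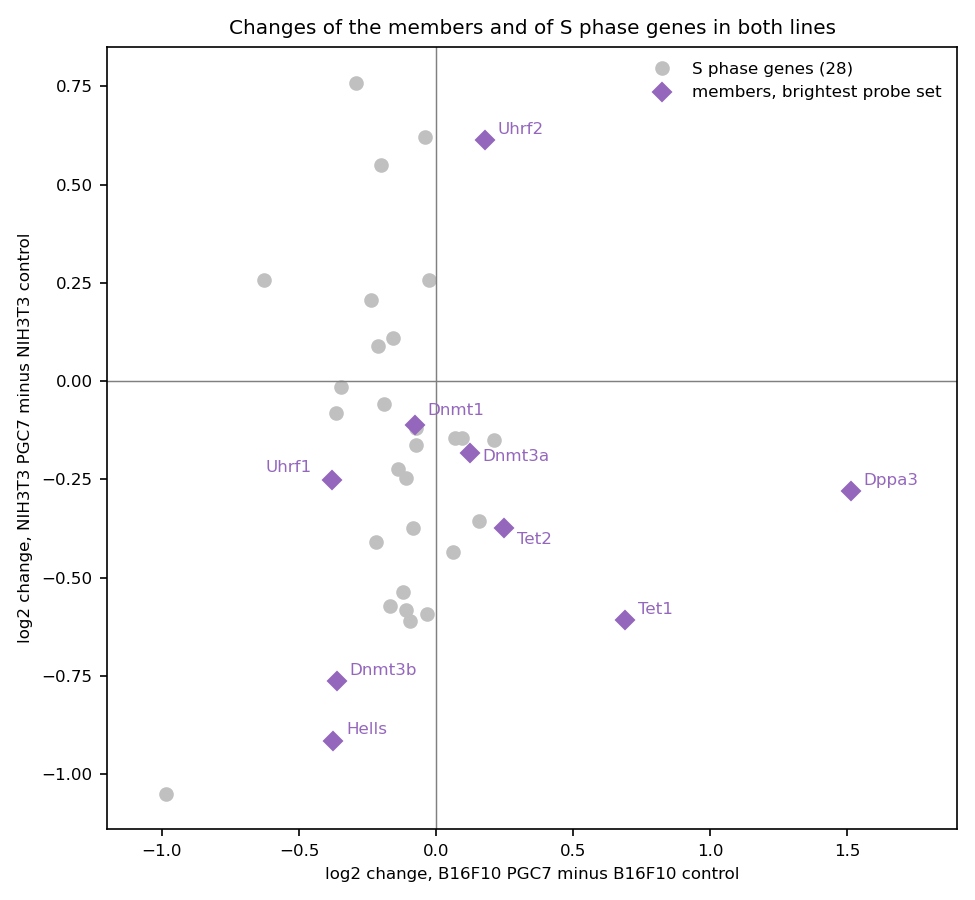
Log2 change, PGC7 minus control, in B16F10 (horizontal) and NIH3T3 (vertical), of the brightest probe set of 9 members (diamonds) and of 28 S phase genes (circles). Dnmt1, Uhrf1, Dnmt3b and Hells lie in the lower left with many S phase genes, Dppa3, Tet1, Tet2 and Dnmt3a in the lower right, and Uhrf2 in the upper right.

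Other genes of the methylation cycle were read through lists. In B16F10, limma called 0 of 8 tested methyl-CpG readers, 0 of 20 maintenance and heterochromatin partners and 0 of 7 CXXC proteins of CpG islands. It also called 0 of 13 base excision repair genes, 0 of 6 methyl donor genes and 0 of 8 genes of a TET cofactor list. Over all genes 1.18% were called higher and 0.386% lower in B16F10, so few calls were to be expected in lists this short. In NIH3T3, none of the readers or CXXC proteins was called. Over all genes 7.87% were called higher and 7.35% lower there, and the counts that follow are to be read against these shares. Of the 20 partners 2 fell, Atrx, a remodeller of heterochromatin (-0.80 ± 0.13, adjusted p = 0.00671), and Zfp445, a zinc finger protein that protects imprints (-0.57 ± 0.14, adjusted p = 0.0315). Of the 13 repair genes 1 fell, the glycosylase gene Neil3 (-1.02 ± 0.25, adjusted p = 0.0314). Atrx also differed between the lines' changes (0.83 ± 0.19, adjusted p = 0.0357), with 7988, 8672 and 9087 in the B16F10 clones against 8399 in the control, and 1677, 1978 and 1719 in NIH3T3 clones 1 and 2 and the uncloned culture against 3114 in the control. Under the spike scaling the difference for Atrx turned to -0.36, not called, and the NIH3T3 changes were -0.45 for Atrx, -0.22 for Zfp445 and -0.68 for Neil3, none called.

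Most genes of the methyl donor and TET cofactor lists were not called in NIH3T3. Of the 6 methyl donor genes 2 fell, Mtr, methionine synthase (-0.91 ± 0.20, adjusted p = 0.0193), and Ahcyl1, a relative of the enzyme that clears S-adenosylhomocysteine (-0.58 ± 0.14, adjusted p = 0.0278). Of the 8 cofactor genes 3 rose: Sdhb, a succinate dehydrogenase subunit (0.65 ± 0.10, adjusted p = 0.0057), Idh2, the mitochondrial isocitrate dehydrogenase that makes 2-oxoglutarate (0.65 ± 0.12, adjusted p = 0.00917), and Ogdh, the dehydrogenase that uses it (0.63 ± 0.16, adjusted p = 0.0341). Idh2 had 4878 and 4892 in NIH3T3 clones 1 and 2 and 5488 in the uncloned culture, against 3239.6 in the control, and 5156, 4968 and 5399 in the B16F10 clones, against 3692 in the control. Those arrays lay above the control in each line, as 37.0% of all tested probe sets did in B16F10 and 28.9% in NIH3T3. In B16F10 the gene was not called (limma, adjusted p = 0.0959). The falls of Mtr and Ahcyl1 were not called under the spike scaling (-0.57 and -0.23), and the rises of Sdhb, Idh2 and Ogdh were not called in the values as deposited (0.52, 0.52 and 0.49).

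Of 15 measured germline genes whose promoters are methylated in somatic cells, 2 passed the filter. Rhox5, an X-linked homeobox gene, had 939, 1355 and 1227 in B16F10 clones 1, 2 and 3, against 54.0 in the control (log2 4.21 ± 0.21, adjusted p = 0.000237). In NIH3T3, where it was high throughout, it had 20977, 21890 and 17197 in clones 1 and 2 and the uncloned culture, against 19260.4 in the control. Brdt, a testis bromodomain gene, had 884, 932 and 813 in those NIH3T3 arrays, against 253 in the control (log2 1.75 ± 0.35, adjusted p = 0.014), and 36.8, 22.0 and 44.9 in the B16F10 clones, against 25.7 in the control. Methylation itself was not measured.

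The genes most like the members were taken by Pearson correlation over the 8 arrays after each line's mean was subtracted, as a description over arrays that share 2 controls. They are the highest among all tested probe sets with a symbol of their own. How high the top r runs for any other probe set was not worked out. For Dppa3 they were Uhrf1bp1 (r = 0.986), Gstz1 (0.979) and Echdc3 (0.974). For Dnmt1 they were Mafk (0.982), Lrr1 (0.975) and Nme1 (0.971). For Uhrf1 they were Polr2h (0.997), Zzz3 (0.992) and Siva1 (0.987), and for Hells Jag1 (0.998), Dse (0.995) and Zfp160 (0.993). Among the members themselves, Hells and Dnmt3b had r = 0.93, Dnmt1 and Uhrf1 0.72 and Uhrf1 and Hells 0.68. Uhrf2 ran the other way, with -0.83 to Hells and -0.84 to Dnmt3b. These pairs were picked by size from all member pairs, and several others were near 0. Dppa3 had r = -0.61 to Uhrf1, -0.47 to Dnmt1 and 0.58 to Dnmt3a, and -0.04 to 0.12 to the other tested members.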

How the data were processed

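Total RNA (6 µg per sample) was labelled as biotinylated cRNA, per the labels' protocols. The authors deposited 1 linear intensity per probe set and array, from MAS5 per the submitters' processing notes, the version and settings being unstated. Before rescaling, the trimmed mean (2% off each end) was 500.003 in every B16F10 array and 143 to 189 in the NIH3T3 arrays, so each array was scaled to a trimmed mean of 500. Probe sets were named through the platform annotation (34958 with 1 symbol, 932 with several, 9211 with none) and placed by RefSeq (GRCm38.p6), which also gave the promoters.

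Signals were tested as log2(signal + 9) with limma 3.58.1 in R 4.3.3 (trended prior), two-sided, over 25236 probe sets after the filter. A fit of 4 group means gave the changes within lines and their difference. A fit with line and PGC7 as terms gave the comparisons over lines. The median total degrees of freedom of these fits were 8.50 and 9.19, which include those that limma's prior borrows from other probe sets. Each lone control borrowed the spread of the PGC7 arrays. The PGC7 arrays of a line are different clones or their mixture, so p-values speak of the spread among clones of unstated independence, with no repeat of any clone or control. A gene in a list is its brightest tested probe set. Named genes were all 10 members, up to 4 called genes per list and line by size of change, and the 3 genes most like Dppa3, Dnmt1, Uhrf1 and Hells. The members and lists were chosen with earlier results of these data known. Alternatives were other scalings, pseudocounts, filters and priors, each line alone, and each PGC7 array left out.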

Additional observations from a re-analysis of the deposited data

Results flagged for a closer look

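In 4 probe sets of 2 members every PGC7 array lay above the control in B16F10 and every PGC7 array below it in NIH3T3. The difference between the lines' log2 changes, B16F10 minus NIH3T3, was 1.30 for Tet1 1455425_at (adjusted p = 0.177) and 2.35 for Tet1 1429448_s_at (adjusted p = 0.242). It was 0.30 for Dnmt3a 1423063_at (adjusted p = 0.495) and 0.49 for Dnmt3a 1460324_at (adjusted p = 0.32). The pattern depends on the scaling: on the poly-A spikes the B16F10 change was -0.71 and -0.60 for these Dnmt3a probe sets and -0.13 and -0.44 for those of Tet1, and the Dnmt3a differences turned to -0.87 and -0.67. None passed limma's interaction test, and each line's direction rests on 1 control array. Clones of Dnmt3a 1460324_at were close together in B16F10 (log2 0.23 to 0.24 above the control). With groups of 1 and 3 arrays, no array was tested for standing apart from its group.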

How the results depend on the processing

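Of the member values recomputed under the alternatives, 1576 kept their direction and their side of the threshold, 34 newly passed it, 12 lost it, 61 that never passed it changed sign, and 4 turned with a call. Member probe sets called in B16F10 numbered 12, all lower, with the arrays scaled on the poly-A spikes, and 2 with the B16F10 arrays fitted alone; the range was 0 to 2 with each PGC7 array left out. In NIH3T3 they numbered 0 with the spike scaling and 0 with the NIH3T3 arrays alone, and 1 to 3 with each PGC7 array left out. For the difference between the lines' changes they numbered 8 with the spike scaling, all lower in B16F10, and 0 to 1 with each array left out. For B16F10 minus NIH3T3 they numbered 15 to 22. The spike scaling moved the median change of all probe sets to -0.78 in B16F10 and 0.26 in NIH3T3, and it made the difference of changes -1.15 for Dnmt1 1422946_a_at and -1.13 for Dnmt1 1435122_x_at and the B16F10 change -0.71 for Dnmt3a 1423063_at. The values as deposited made Uhrf2 1454920_at 1.38 higher in B16F10. The cause was not tested. Of all probe sets called, those in B16F10 numbered 300 and ranged from 59 without clone 3 to 10791 with the spike scaling (2196 in the B16F10 arrays alone, 1829 without the uncloned NIH3T3 culture, 70 without the intensity trend, 177 without the filter and 199 with quantile normalization). In NIH3T3 they numbered 3229, and 1151 in the NIH3T3 arrays alone, 1995 without B16F10 clone 1, 2127 without the trend and 6138 without the uncloned culture. For the difference of changes they numbered 1737, and 739 to 4419 with an array left out, 934 without the trend, 1045 as deposited and 10337 with the spike scaling. Over both lines they numbered 39, and from 5 without the trend to 104 with the spike scaling. Clone numbers of different lines do not pair; with the clone number as a replicate block, 18 member probe sets were higher in B16F10 over the 6 PGC7 arrays. Dim probe sets, such as Tet3's, are limited by signal over background.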
